A study of Mus musculus with 21 samples.

Results

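The transcripts of the complement system were followed through primary melanomas, their lung metastases and normal lung, in every cell class that could be named. The set holds 30 genes fixed by name, namely the recognition units C1qa, C1qb and C1qc, the proteases C1ra, C1s1, C1rl and Masp1, the convertase and central components C2, C4b, C3, Cfb, Cfd and Cfp, the terminal components Hc, C6 and C7, the receptors C3ar1, C5ar1, C5ar2, Cr2 and Vsig4, the regulators Serping1, Cfi, Cd55, Cd59a, Cd46 and Cr1l, and the binding proteins Colec12, Fcna and C1qbp. All 30 were among the 32285 genes of the count table. Their levels were read as raw UMIs (unique molecular identifiers, 1 per captured transcript) and are given as CPM, a gene's share of all UMIs of that cell class in that library on the usual CPM scale.

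Complement is a cascade of serum and tissue proteins. C1q on bound antibody, lectins on sugars, or the spontaneous turnover of C3 each lead to convertases that cleave C3 and then C5, releasing the small peptides C3a and C5a that draw in and activate leukocytes, while C5b gathers C6, C7, C8 and C9 into a membrane pore. Host cells carry regulators that break up convertases or block the pore. The liver makes most circulating complement, and fibroblasts, macrophages and epithelial cells also make components locally.

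The samples came from the MT-ret melanoma model, in which tumor fragments were transplanted under the skin of mT/mG mice that express tdTomato from a ubiquitous promoter in all host cells, so that engrafted tumor cells are unlabeled. Recipients were male and female mice of 8 to 10 weeks. The groups used here are the tumor microenvironment (TME) of primary tumors, the TME of lung metastases that grew after the primary tumor was resected, the unlabeled malignant melanoma (MM) fractions of both, and unchallenged lungs. Host cells were sorted as living tdTomato+ cells or as living tdTomato+ CD45- cells, and the sources used here do not say which gate each library had, so the share of leukocytes may be set by the gate. Lung metastasis TME replicates 5 and 6 held fewer than 20 T cells, NK cells, dendritic cells and classical monocytes each, unlike unchallenged lung replicates 5 and 6. Differences between tissues in macrophages and neutrophils cannot be told apart from differences of gate. Fewer transcripts of a gene in a summed class cannot be told apart from fewer cells of a subtype within that class. Replicates labelled 1-3 pool several mice. Metastasis and primary tumor share animals in TME replicates 1-3 (in part), 5 and 6 and in MM replicate 5.

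After library names with identical counts (5 of 24) were used once, 100359 cells in 16 libraries remained, with 303 to 30419 cells and 1777036 to 60339415 UMIs a library. One of these repeats carried both an MM label and the label of lung metastasis TME replicate 6. It was used as TME, and it held fewer than 20 melanoma cells, whereas lung metastasis TME replicate 5 held 2030. Before the sum, libraries shared at most 227 cell barcodes. Unchallenged lung replicate 6, primary tumor TME replicate 6 and primary tumor MM replicate 4 were shallow, with a median of 1203 to 1654 UMIs per cell against 3050 or more in the others. Clustering without the complement genes gave 34 clusters named by markers, which form 15 classes, and 8 unnamed clusters with 9260 cells. A class was measured in a library where it had at least 20 cells. The MM libraries were not pure, since 263 of the 638 cells of lung metastasis MM replicate 4 were of the melanoma class. In lung replicate 6, C5ar1, a myeloid transcript (below), was also found in other classes. It was at 79.1 CPM in NK cells there, against 0.593 and 8.71 in lung replicates 4 and 5. In ciliated cells it was at 72.9 CPM there, against 0 and 3.14 in lung replicates 1 and 5. The source of these transcripts was not tested. No primary tumor library held enough AT-2, club or ciliated cells to give these lung epithelial classes a level there.

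Of the 30 genes, 24 reached a mean of 20 CPM in at least 1 class, and the other 6 (C1rl, Cfd, Cfi, Cd46, Masp1 and Vsig4) did not. The highest mean lay in fibroblasts for 8 of the 24 (C1ra, C1s1, C3, C4b, C7, Cfb, Serping1 and Colec12), in macrophages for 6 (C1qa, C1qb, C1qc, Cfp, C3ar1 and Fcna), in melanoma cells for 3 (C2, Cd59a and C1qbp), in B cells for 3 (Cd55, Cr2 and Cr1l), and in neutrophils (C5ar1 and C5ar2) and AT-2 cells (C6 and Hc) for 2 each. For 11 of them (C1qa, C1qb, C1qc, C1s1, C6, Hc, C3ar1, Serping1, Cr2, Colec12 and C1qbp) the libraries of the highest class did not overlap with those of the next. The fibroblast class was mixed, since 66.02% of its cells fell into subclusters that could not be named by fibroblast, mesothelial or mural markers when it was clustered again. With its named subclusters alone, chosen after the data were seen, the highest class was the same for all 24 genes. Without the MM libraries in the classes other than melanoma, also chosen after the data were seen, it was the same for 23 of the 24. The exception was Cr1l, then highest in endothelial cells, and C1ra joined the genes whose ranges did not overlap.

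**Figure D1:**
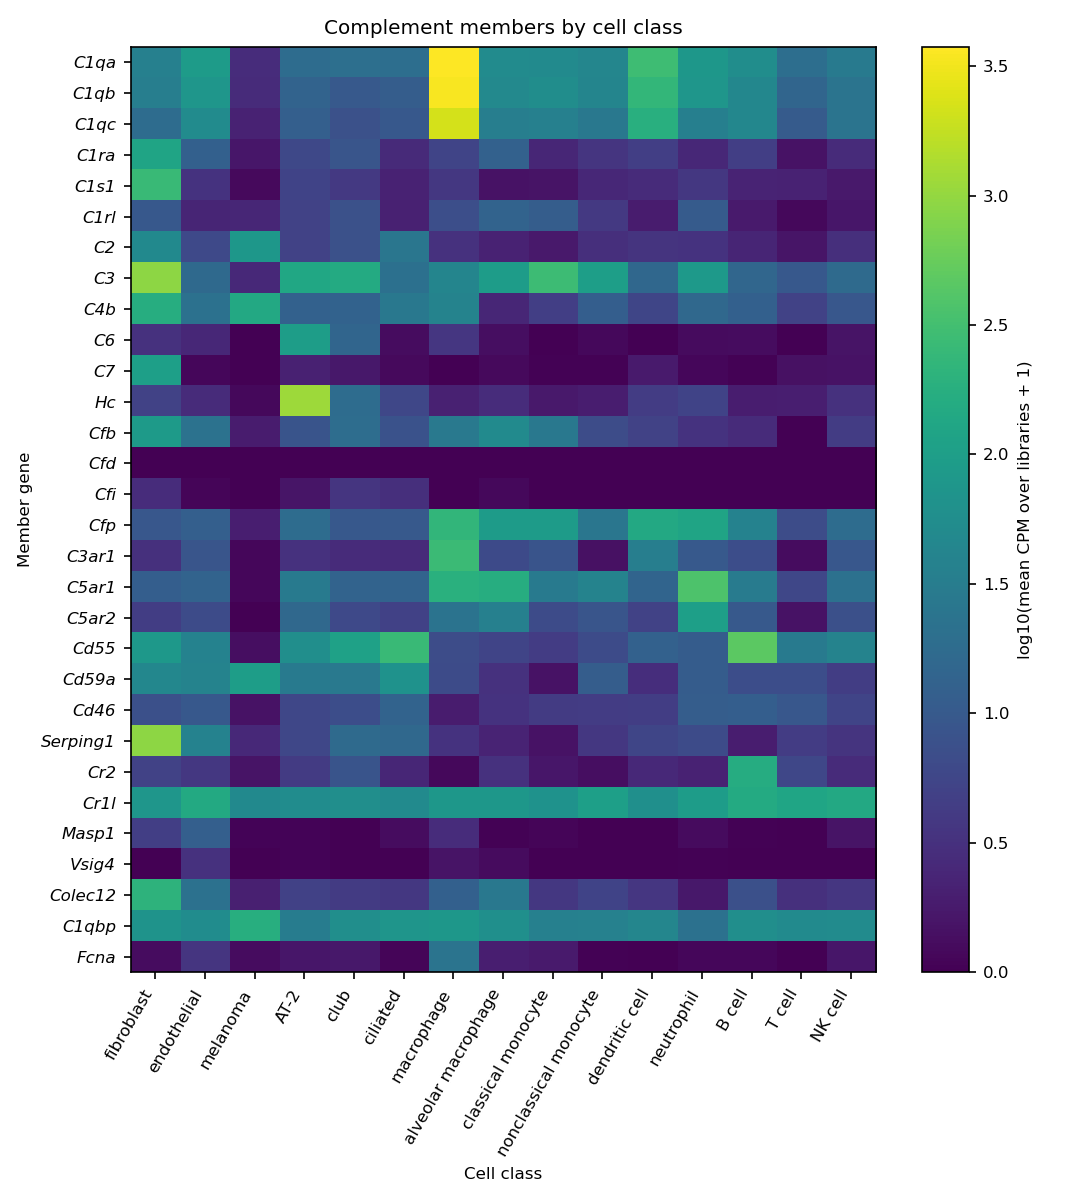
Heat map of the 30 complement genes (rows) against the 15 cell classes (columns). The colour is log10 of the mean CPM over libraries plus 1. Bright cells group under fibroblasts (C3, Serping1, C1s1 and Colec12), macrophages (C1qa, C1qb, C1qc, C3ar1, Cfp), neutrophils (C5ar1, C5ar2), B cells (Cd55, Cr2) and AT-2 cells (Hc, C6).

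The 3 chains of C1q, which together form the recognition unit of the classical pathway, were macrophage transcripts. C1qa lay from 2812 to 5117 CPM with a median of 3356 over the 9 macrophage libraries, C1qb from 1964 to 5286 CPM with a median of 2979.8 and C1qc from 1567 to 3252 CPM with a median of 1922. Dendritic cells came next with a mean for C1qa of 289 ± 213 CPM (SD, n = 6, range 37.5 to 606), for C1qb of 231 ± 214 CPM (SD, n = 6, range 28.1 to 493) and for C1qc of 176 ± 131 CPM (SD, n = 6, range 37.5 to 352). After each cell was thinned to 1000 UMIs, a median of 73.7% of the macrophages of a library had a C1qa UMI (53.7 to 92.2%, 87.5% without thinning), against 1.34% (3.93% without thinning) of T cells, a class that should lack the gene. Median depth was 2605 to 7899 UMIs in macrophages and 1698 to 4033 in T cells. The share in T cells is taken as the background of the measure, and its source was not tested.

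The 3 genes lie side by side on the minus strand of chromosome 4 (GRCm38), C1qb and C1qc 3.6 kb apart and C1qc and C1qa 2.9 kb apart. Across the 15 classes, log2 of the mean CPM plus 1 was closely correlated between the 3. Pearson r was 0.993 for C1qb and C1qc, 0.992 for C1qa and C1qb and 0.991 for C1qa and C1qc. It is given as a description over classes that share libraries, and the order of the low classes differed between the chains. Because these neighbors ran together in macrophages, the promoters of the pair present in the RefSeq promoter table (GRCm38.p6, 250 bases before to 50 after the start) are shown. Capitals mark GAGGAA or its reverse complement TTCCTC, the core letters bound by PU.1, a transcription factor of the myeloid lineage.
C1qb (chr4:136886151-136886450, minus strand): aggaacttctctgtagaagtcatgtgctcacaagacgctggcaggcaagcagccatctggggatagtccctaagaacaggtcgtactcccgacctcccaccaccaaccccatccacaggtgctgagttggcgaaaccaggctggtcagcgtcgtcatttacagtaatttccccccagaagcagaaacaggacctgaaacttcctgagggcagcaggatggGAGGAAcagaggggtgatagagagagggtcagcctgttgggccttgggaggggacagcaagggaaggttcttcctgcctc
C1qc (chr4:136892865-136893164, minus strand): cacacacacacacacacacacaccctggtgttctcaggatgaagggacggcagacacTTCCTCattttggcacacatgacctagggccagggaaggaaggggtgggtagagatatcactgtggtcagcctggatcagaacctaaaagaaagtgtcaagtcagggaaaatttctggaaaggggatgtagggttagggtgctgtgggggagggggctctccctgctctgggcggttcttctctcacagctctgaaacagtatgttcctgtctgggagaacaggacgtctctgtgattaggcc
Both windows held 1 match, C1qb in the coding orientation and C1qc on the opposite strand. These letters are common, since 28.3% of all 32851 promoters in the table held them on either strand, and 8 of the 22 members with an entry did. C1qa, C2, C4b, Cfb, Cfi, Serping1, Masp1 and Colec12 are named only.

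The proteases of the C1 complex followed a different class. C1s1, which cleaves C4 and C2, averaged 262 ± 187 CPM (SD, n = 9, range 69.9 to 675) in fibroblasts and 4.16 ± 3.60 CPM (SD, n = 3, range 0 to 6.33) in the next class, AT-2 cells. C1ra, which activates C1s, averaged 119.9 ± 123 CPM (SD, n = 9, range 0 to 419) in fibroblasts and 12.03 ± 9.003 CPM (SD, n = 5, range 0 to 23.6) in alveolar macrophages. C1q and its 2 proteases were therefore highest in different cells, macrophages and fibroblasts. C1rl, a protease related to C1r that lies beside C1ra on chromosome 6, had a mean below 20 CPM in each class. Its highest mean, 12.8 ± 6.35 CPM (SD, n = 5, range 7.45 to 23.2), lay in alveolar macrophages. Masp1, a protease of the lectin pathway, had its highest mean in endothelial cells at 11.1 ± 10.3 CPM (SD, n = 13, range 0 to 30.8). Reads of C1ra and C1s1 may not be told apart from those of their near-identical neighbors C1rb and C1s2, which had 5 and 10 UMIs in all named cells.

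Of the convertase components, C4b (the source of C4b on the cell surface) averaged 169 ± 144 CPM (SD, n = 9, range 34.96 to 468) in fibroblasts and 145 ± 59.6 CPM (SD, n = 5, range 78.5 to 216) in melanoma cells, and these ranges overlapped. C2, the protease that completes the classical C3 convertase, averaged 77.7 ± 19.97 CPM (SD, n = 5, range 62.3 to 101) in melanoma cells and 48.1 ± 36.3 CPM (SD, n = 9, range 8.76 to 121) in fibroblasts, again with overlap. In the single libraries of melanoma cells, C2 was at 64.7 and 101 CPM in lung metastasis MM replicates 4 and 5, 97.6 in the melanoma cells of lung metastasis TME replicate 5, and 62.3 and 62.4 in primary tumor MM replicates 4 and 5. C4b in the same libraries was at 78.5 and 124 CPM in metastasis MM, 107 in metastasis TME and 216 and 198 in primary tumor MM. The melanoma cells themselves thus carried transcripts of both parts of the classical convertase. C4a, a near copy of C4b, had 91 UMIs in all named cells, and its share in the C4b level cannot be resolved.

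C3, on which all 3 routes meet, was highest in fibroblasts but varied most there, from 69.9 to 2928 CPM with a median of 509.6 over 9 libraries. Classical monocytes were at 281 ± 60.3 CPM (SD, n = 6, range 201 to 375) and club cells, the secretory cells of the small airways, at 152 ± 16.1 CPM (SD, n = 4, range 131 to 167). In the club cells of lung metastasis C3 was at 167 and 131 CPM (replicates 5 and 6), and in those of unchallenged lung at 163 and 148 (replicates 5 and 6), so the 2 tissues overlapped. A C3 UMI was found in a median of 28.2% of fibroblasts (39.5% without thinning) and 0.196% of T cells (0.943% without thinning), at median depths of 1147 to 6053 and 1698 to 4033 UMIs.

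Factor B (Cfb), the protease of the alternative C3 convertase, averaged 87.7 ± 60.1 CPM (SD, n = 9, range 27.7 to 167) in fibroblasts and 49.7 ± 20.1 CPM (SD, n = 5, range 26.7 to 70.8) in alveolar macrophages, with overlap. In alveolar macrophages it was at 55.8 CPM in lung metastasis replicate 1-3 and at 70.8, 64.9, 26.7 and 30.4 in unchallenged lung replicates 1, 4, 5 and 6. Properdin (Cfp), which stabilizes that convertase, averaged 222 ± 93.3 CPM (SD, n = 9, range 38.3 to 348) in macrophages, 141 ± 120.0 CPM (SD, n = 6, range 15.8 to 338) in dendritic cells and 121 ± 30.9 CPM (SD, n = 10, range 67.7 to 159) in neutrophils. Factor D (Cfd), which activates factor B and is known as a product of fat cells, had 4 UMIs in all 100359 cells. Transcripts of the alternative pathway were thus split between stromal and myeloid classes, and its activating protease was at the limit of detection at this depth. Cfb and C2 lie 85 bases apart on chromosome 17, with C4b 112 kb away.

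The terminal components were split between AT-2 cells and fibroblasts. C5 (Hc) was an AT-2 transcript, at 1455 CPM in lung metastasis replicate 5 and 1396 and 477 in unchallenged lung replicates 5 and 6. AT-2 cells, which make surfactant, also had the highest C6, at 124 CPM in metastasis replicate 5 and 118 and 45.5 in lung replicates 5 and 6. Both genes were lowest in the shallow lung replicate 6. The next class, club cells, averaged 17.1 ± 12.9 CPM (SD, n = 4, range 2.53 to 33.7) for Hc and 13.5 ± 9.18 CPM (SD, n = 4, range 0 to 20.2) for C6. After thinning, a median of 65.3% of AT-2 cells had an Hc UMI (84.7% without thinning), against 0 of 972 thinned T cells pooled over libraries, which allows up to 0.309% of T cells with a UMI (counting error only). C7, which anchors the forming pore to the membrane, was on the contrary a fibroblast transcript, from 0 to 453 CPM with a median of 31.1, and averaged 1.11 ± 1.33 CPM (SD, n = 3, range 0 to 2.59) in AT-2 cells. C6 and C7 lie 174 kb apart on chromosome 15.

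Because C3 and C7 were fibroblast transcripts that differed widely between libraries, their promoters are shown from the same table, with capitals marking TTNNGNAA or its reverse complement TTNCNNAA, letters of the motif bound by C/EBP factors, which are known regulators of acute-phase genes.
C3 (chr17:57228087-57228386, minus strand): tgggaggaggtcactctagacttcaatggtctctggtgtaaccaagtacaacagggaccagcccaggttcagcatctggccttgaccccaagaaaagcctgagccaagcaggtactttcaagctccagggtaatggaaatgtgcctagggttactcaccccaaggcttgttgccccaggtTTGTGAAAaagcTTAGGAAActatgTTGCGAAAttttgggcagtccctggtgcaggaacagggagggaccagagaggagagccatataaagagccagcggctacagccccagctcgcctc
C7 (chr15:5063724-5064023, minus strand): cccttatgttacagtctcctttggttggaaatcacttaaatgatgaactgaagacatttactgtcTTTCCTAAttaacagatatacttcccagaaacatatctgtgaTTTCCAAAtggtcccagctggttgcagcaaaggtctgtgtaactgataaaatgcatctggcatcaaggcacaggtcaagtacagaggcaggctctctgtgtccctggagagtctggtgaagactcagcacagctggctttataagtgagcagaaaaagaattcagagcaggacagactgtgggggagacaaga
C3 held 3 matches and C7 held 2, and each also held 1 TATAAA, C3 in the printed orientation and C7 on the opposite strand (TTTATA as printed). The first motif was found in 40.7% of all promoters and in 13 of the 22 members with an entry, and TATAAA in 13.6% of all promoters and in 4 members, so a match by itself describes the letters and marks no site.

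The receptors of the released peptides were transcripts of myeloid cells. C3ar1, the receptor of C3a, averaged 273 ± 70.1 CPM (SD, n = 9, range 151 to 405) in macrophages and 33.01 ± 32.6 CPM (SD, n = 6, range 0 to 88.99) in dendritic cells. C5ar1, the receptor of C5a, averaged 380.2 ± 154 CPM (SD, n = 10, range 132 to 677) in neutrophils, 184 ± 67.1 CPM (SD, n = 9, range 97.2 to 316) in macrophages and 169 ± 6.86 CPM (SD, n = 5, range 159 to 176) in alveolar macrophages. C5ar2, a second C5a receptor that does not couple to G proteins, averaged 102 ± 56.97 CPM (SD, n = 10, range 26.4 to 182) in neutrophils and 34.9 ± 14.5 CPM (SD, n = 5, range 17.01 to 51.7) in alveolar macrophages. The genes of C5ar1 and C5ar2 lie 2.6 kb apart on chromosome 7, and their class means had a Pearson r of 0.959. C5 and its receptors were highest in different cells, the first in AT-2 cells and the others in neutrophils. The receptor of C3 fragments on B cells, Cr2, averaged 160.5 ± 98.6 CPM (SD, n = 7, range 31.9 to 317) there and 7.58 ± 7.75 CPM (SD, n = 4, range 0 to 17.7) in the next class, club cells. Vsig4, a C3b receptor of tissue macrophages, had 25 UMIs in all cells.

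Among the regulators, C1 inhibitor (Serping1), which blocks C1r, C1s and the lectin proteases, was the most fibroblast-rich, from 375 to 2809 CPM with a median of 702, with endothelial cells next at 36.99 ± 44.03 CPM (SD, n = 13, range 0 to 137). Cd55, which breaks up convertases, averaged 473 ± 165 CPM (SD, n = 7, range 201 to 669.7) in B cells and 267 ± 157 CPM (SD, n = 6, range 27.3 to 473) in ciliated cells. Cd59a, which blocks the pore, averaged 96.1 ± 32.9 CPM (SD, n = 5, range 71.2 to 154) in melanoma cells and 66.4 ± 29.9 CPM (SD, n = 6, range 32.1 to 109) in ciliated cells. The lowest ciliated Cd55 and the highest ciliated Cd59a came from the 23 ciliated cells of lung metastasis MM replicate 5, which also had C2 at 109 CPM against 0 to 20.3 in the other 5 ciliated libraries. Without that library ciliated cells were at 204 to 473 CPM for Cd55 and 32.1 to 91.7 for Cd59a. In the melanoma libraries Cd59a was at 87.8 and 71.2 CPM in metastasis MM replicates 4 and 5, 79.4 in metastasis TME replicate 5 and 154 and 88.4 in primary tumor MM replicates 4 and 5. Cr1l (Crry), the broad convertase regulator of rodents, averaged 153 ± 42.9 CPM (SD, n = 7, range 121 to 244) in B cells and 148 ± 40.1 CPM (SD, n = 13, range 81.9 to 206) in endothelial cells. Its mean was at 20 CPM or more in all 15 classes. Every class thus had at least 1 membrane regulator above that level. The mean of Cd46 was below 20 CPM in each class and highest in ciliated cells at 12.7 ± 12.2 CPM (SD, n = 6, range 0 to 35.3). Factor I (Cfi), the protease that inactivates C3b, had 46 UMIs in all cells.

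Colec12, a scavenger receptor of the collectin family, averaged 200.4 ± 142 CPM (SD, n = 9, range 99.6 to 540.0) in fibroblasts and 26.1 ± 7.74 CPM (SD, n = 5, range 18.5 to 34.97) in alveolar macrophages. C1qbp, a mainly mitochondrial protein that binds the heads of C1q, averaged 172 ± 12.03 CPM (SD, n = 5, range 159 to 191) in melanoma cells and 77.9 ± 30.1 CPM (SD, n = 9, range 31.2 to 140.3) in macrophages. Its mean was at 20 CPM or more in all 15 classes. The narrow spread of C1qbp over the 5 melanoma libraries, from 159 to 191 CPM, included both tumor sites. Fcna, a soluble lectin of macrophages, averaged 22.7 ± 28.9 CPM (SD, n = 9, range 0 to 89.3) in macrophages.

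The tissues were then compared within each class over libraries, with UMIs summed per library and 1 edgeR quasi-likelihood fit per class over all genes, called at an adjusted p below 0.05. In fibroblasts 18 of the 30 genes passed the low-count filter. In lung metastasis against primary tumor 1 of the 18 was called, C7, which was higher, against 0.819% of all 11112 genes tested (0.693% higher). In lung metastasis against unchallenged lung none of the 18 was called with edgeR (0 with DESeq2), against 1.08% of all genes. An unadjusted p below 0.05 was found for 3 of the 18 and for 2187 of all 11112 genes. In primary tumor against unchallenged lung 2 of the 18 were called, C1ra and C7, both lower in the tumor, against 12.2% of all genes (6.89% lower). The median log2 fold change of the 18 was 0.68, -0.41 and -0.88 in these comparisons, and that of all genes -0.01, -0.04 and -0.03. The fibroblast libraries were replicates 5 and 6 of lung metastasis, replicates 4, 5 and 6 of primary tumor and replicates 4, 5 and 6 of unchallenged lung, and the values of each gene are given in that order. Subclusters that could not be named held 85.1% of the class in lung replicate 6 and 76.97% in primary tumor replicate 6, both shallow libraries, against 1.06 to 15.3% in the other 6.

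C7 was all but missing from primary tumor fibroblasts. It was at 0, 0 and 0.190 CPM in the 3 primary tumor libraries (1 UMI in all), at 89.5 and 31.1 in the 2 metastasis libraries and at 306, 453 and 40.99 in the 3 lung libraries. No primary tumor library came near those of the other tissues. The ratio of pooled UMIs was 584 for metastasis over primary tumor (exact 95% interval 103 to 23212, counting error only) and 926 for lung over primary tumor (166 to 36604). The fit gave a log2 fold change 8.31 ± 1.38 (SE), adjusted p = 0.0305 for the first and a log2 fold change -10.31 ± 1.33 (SE), adjusted p = 0.00299 for the second. The first call was lost on leaving out any 1 of the 5 libraries, while the second held in all 15 alternatives run for it. Within replicates 5 and 6 alone, which share a run number in the library names, the values were log2 fold change 8.21, adjusted p = 0.0901 and log2 fold change -10.15, adjusted p = 0.0152. Metastasis was at a log2 fold change of -1.998 ± 0.87 (SE) against lung, adjusted p = 0.247.

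C1ra was at 34.8, 77.01 and 33.4 CPM in primary tumor and 126, 419 and 104 in lung, with metastasis at 130.1 and 156. The primary tumor libraries lay below both other tissues without overlap, and the call against lung was close to the threshold (log2 fold change -2.12 ± 0.60 (SE), adjusted p = 0.0494). It was lost in 6 of 15 alternatives. C1s1, its partner, was at 223, 190.0 and 134 CPM in primary tumor, 229 and 459.8 in metastasis and 184, 675 and 196 in lung, which overlapped, and was not called (adjusted p = 0.344 against lung).

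C3 was high in both metastasis libraries, 1411 and 2928 CPM, against 152, 509.6 and 75.1 in primary tumor, while lung spanned 312, 2190.4 and 566. The metastasis and primary tumor libraries did not overlap, and the difference did not pass the test (log2 fold change 3.05 ± 0.97 (SE), adjusted p = 0.230). Cfb was at 158 and 162 CPM in metastasis, 27.7, 97.5 and 33.8 in primary tumor and 29.2, 167 and 44.8 in lung (adjusted p = 0.557 for metastasis against primary tumor). C2 was at 65.9 and 69.1 CPM in metastasis, 16.97, 25.7 and 16.9 in primary tumor and 8.76, 121 and 39.2 in lung. C3, Cfb and C2 were thus each above the primary tumor libraries in both metastasis libraries, and none was called. Of the 18 genes tested, 10 did not overlap between metastasis and primary tumor, against 28.7% of all genes, and the same held for 2 between metastasis and lung (31.4% of all genes) and 5 between primary tumor and lung (33.9%).

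C4b was at 204 and 290.4 CPM in metastasis, 39.3, 226 and 81.2 in primary tumor and 55.5, 468 and 126 in lung, and the 3 tissues overlapped. Serping1 was at 1037 and 463 CPM in metastasis, 707, 702 and 375 in primary tumor and 1278, 2809 and 548 in lung, also with overlap (adjusted p = 0.215 for primary tumor against lung). Colec12 was at 158 and 176 CPM in metastasis, 150.1, 119 and 111 in primary tumor and 540.0, 309.8 and 99.6 in lung, with the shallow lung replicate 6 below every tumor library. Lung replicate 6 was the lowest lung library for C7, C1ra, Serping1 and Colec12.

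**Figure D2:**
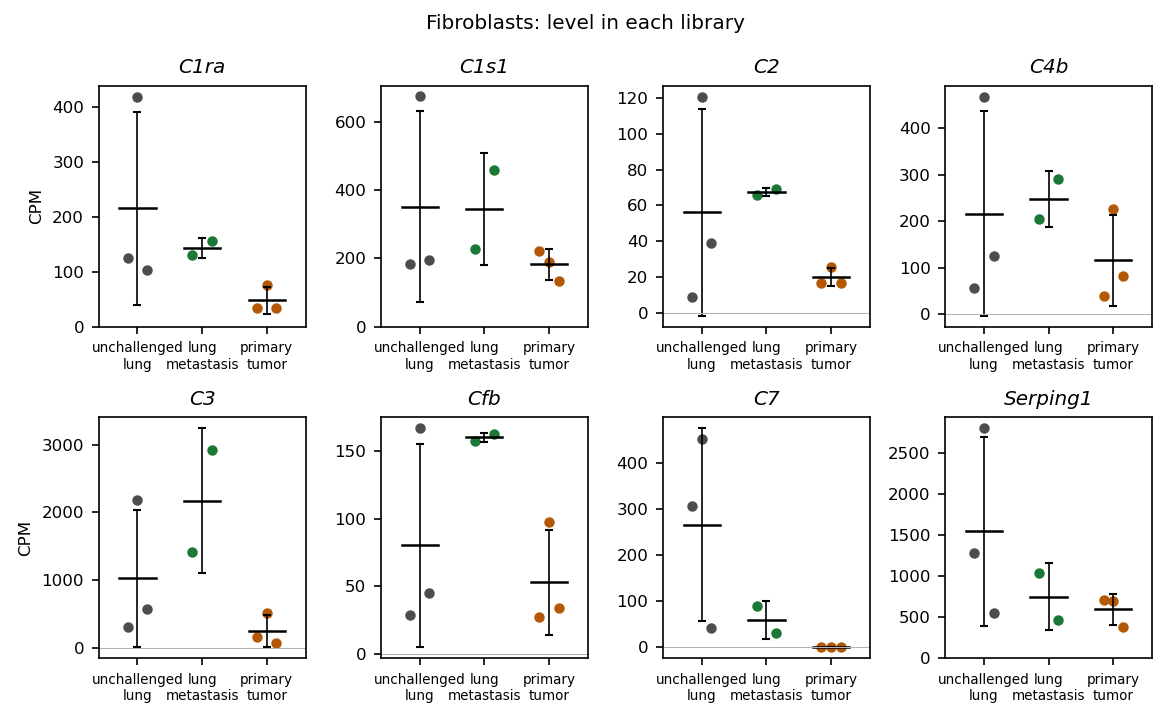
CPM of 8 complement genes in fibroblasts, 1 point per library, with lines at the mean and bars of 1 SD, for unchallenged lung (n = 3), lung metastasis TME (n = 2) and primary tumor TME (n = 3). C7 sits at 0 to 0.190 CPM in primary tumor and above 31 in all other libraries, and C3 and Cfb are high in both metastasis libraries and spread widely in lung.

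The fibroblast class was clustered again on its own, and 7 of its 15 subclusters could be named by fibroblast, mesothelial or mural markers. The other 8 held 3744 of the 5671 cells, namely 77.2% of the class in lung, 67.1% in primary tumor and 3.55% in metastasis. Among them were 1528 cells led by melanoma genes (1480 of primary tumor) and 214 led by endothelial genes such as Plvap and Emcn (213 of primary tumor). In unchallenged lung 823 cells were led by myeloid genes such as Marco and Ccr2, 439 by genes such as Car4 and Cldn5 (with 7 of 7 ciliated markers raised), 436 by genes of ciliated cells such as Foxj1 and 187 by surfactant genes such as Sftpc. Another 85 cells (84 of unchallenged lung) were led by genes of cell division such as Top2a and had 9 of 9 alveolar macrophage markers raised. A further 32 had both mesothelial (6 of 8) and club cell (6 of 7) markers raised. The named peribronchial subcluster also had 7 of the 9 melanoma markers raised. The summed CPM of the 9 melanoma markers in the fibroblast class was 4421 and 971 in metastasis, 468, 1042 and 4658 in primary tumor and 0, 0.980 and 7.21 in lung, and its part in the results was not tested. In the named subclusters alone, an alternative chosen after the data were seen, C7 was at 92.9 and 31.9 CPM in metastasis, 0, 0 and 0.327 in primary tumor and 316, 458 and 95.3 in lung. There 2 members were called in metastasis against primary tumor (against 4.04% of all 10454 genes, 2.81% higher), both higher, C7 (log2 fold change 7.76, adjusted p = 0.00228) and Cd59a (log2 fold change 1.32, adjusted p = 0.0471). In primary tumor against lung 6 were called (against 18% of all genes, 9.82% lower), all lower, namely C7 (log2 fold change -9.80, adjusted p = 0.000102), C1ra (log2 fold change -2.22, adjusted p = 0.00975), C1rl, C2, Cd59a and Colec12. Between metastasis and lung none was called there by edgeR, against 5.64% of all genes. An unadjusted p below 0.05 was found for 4 of the 18 tested, a count given without the share of all genes at that p.

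The subclusters showed which fibroblasts carried which member, given as pooled CPM per tissue with no test, since 1 library supplied most cells of several. C7 was at 352 CPM in the alveolar fibroblasts of lung and 586 in those of metastasis, and at 339 and 149 in adventitial fibroblasts of the same tissues. It was at 0.838 in the mesothelial cells of metastasis, at 0 in the parenchymal and 1.16 in the adventitial fibroblasts of primary tumor, and at 0 in pericytes or smooth muscle of all 3 tissues. The adventitial fibroblasts fell into different subclusters. Those of lung and metastasis were of subcluster 7 (246 and 23 cells, 6 of 6 markers raised), and those of primary tumor of subcluster 11 (165 cells, 0 of lung, 4 of 6 markers raised). The tissue and the subcluster cannot be told apart there. C7 was thus carried by the lung-type fibroblasts of both lung tissues.

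C3 was at 2291 CPM in the mesothelial cells of metastasis (239 of the 264 cells of that subcluster came from metastasis), and at 2434 in the adventitial fibroblasts of unchallenged lung and 2163 in those of metastasis. Alveolar fibroblasts had 658 in lung and 1127 in metastasis, and peribronchial fibroblasts 219.8 in metastasis. In primary tumor the adventitial fibroblasts, which are of another subcluster than those of lung and metastasis, had 518 and the parenchymal ones 56.6. The adventitial ones of primary tumor thus lay above the peribronchial ones of metastasis. Cfb was at 219.6 CPM in mesothelial cells, 262 in adventitial, 64.6 in alveolar and 28.2 in peribronchial fibroblasts of metastasis. It was at 188 in lung adventitial, 148 in primary tumor adventitial and 14.7 in primary tumor parenchymal fibroblasts. Without the mesothelial subcluster, also chosen after the data were seen, C3 in metastasis against primary tumor came to a log2 fold change 1.75, adjusted p = 0.659, and C7 stayed called (log2 fold change 9.49, adjusted p = 0.0209). Serping1 was highest in the adventitial fibroblasts of lung (3053 CPM) and metastasis (3212) and was at 141 CPM or more in each named subcluster.

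**Figure D3:**
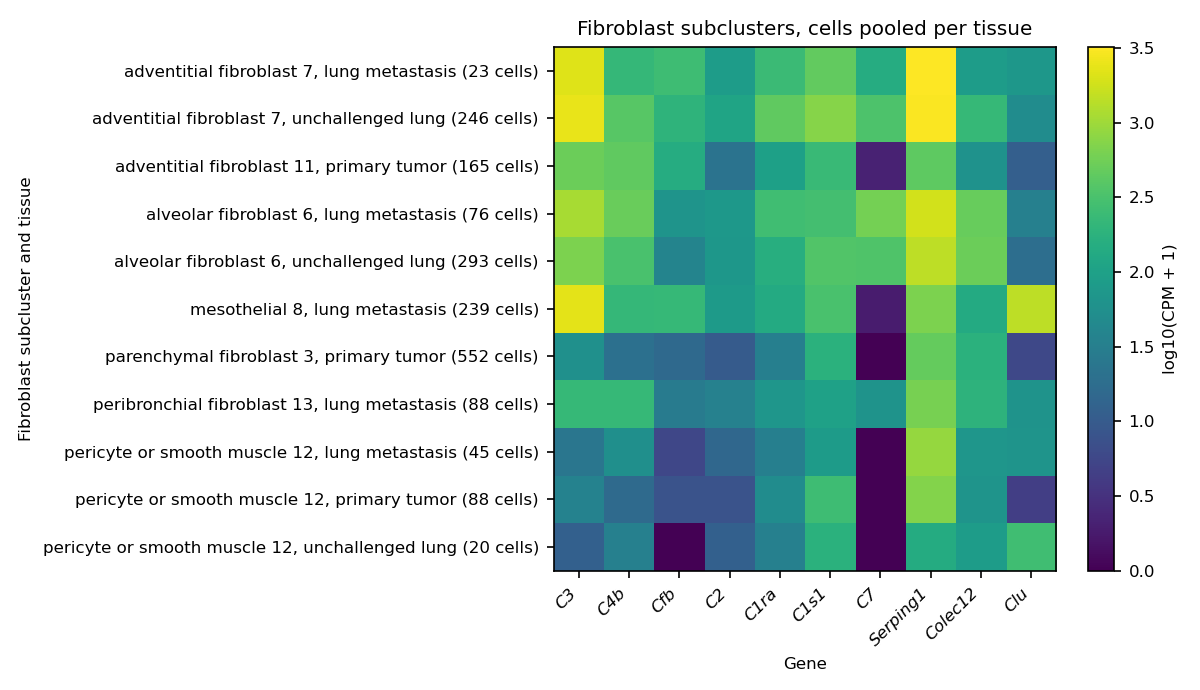
Heat map of pooled levels, log10 of CPM plus 1, of 9 complement genes and of Clu (columns) in the named fibroblast subclusters by tissue (rows, with the number of cells). C7 is bright in the alveolar and adventitial rows of lung and metastasis and dark in the rows of primary tumor, while C3 is brightest in the lung-type adventitial and the mesothelial rows. The adventitial row of primary tumor is of another subcluster than those of lung and metastasis.

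In macrophages 12 of the 30 genes were tested, over replicates 1-3, 5 and 6 of lung metastasis, 1-3 and 4 of primary tumor and 1, 4, 5 and 6 of unchallenged lung. Between metastasis and primary tumor edgeR called none (0 with DESeq2), against 0.15% of all 5325 genes, while 1 of the 12 and 248 of all genes had an unadjusted p below 0.05. In metastasis against lung 3 were called, all higher (C4b, Cfb and Fcna), against 9.99% of all genes (5.62% higher), and in primary tumor against lung 2, both higher (C4b and Cfb), against 8.47% (4.34% higher). Libraries did not overlap for 2, 3 and 7 of the 12 genes in these comparisons, against 17.5%, 20.2% and 32.8% of all genes. C4b and Cfb, a component each of the classical and the alternative convertase, were thus higher than in lung macrophages at both tumor sites. The gates of these libraries are not known, so tissue and gate cannot be told apart there.

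Cfb was at 0 in all 4 lung libraries (0 of 865637 UMIs). It was at 39.8, 38.3 and 6.88 CPM in the 3 metastasis libraries and 74.3 and 85.8 in the 2 primary tumor libraries. Set against the floor of 3 UMIs over the lung libraries, pooled Cfb was at least 8.30-fold higher in metastasis and at least 24.2-fold higher in primary tumor. The adjusted p was 0.00860 and 0.000541, and both calls held in all alternatives in which the gene could be tested. Alveolar macrophages, a class of its own, carried Cfb in lung as well (above), so this concerns the other lung macrophages.

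C4b was at 75.5, 70.1 and 16.1 CPM in metastasis, 107 and 58.2 in primary tumor and 0, 3.49, 0 and 20.8 in lung. Metastasis replicate 6 lay below lung replicate 6, so these groups overlapped (log2 fold change 3.24 ± 0.80 (SE), adjusted p = 0.0167), while primary tumor did not overlap with lung (log2 fold change 3.82 ± 0.73 (SE), adjusted p = 0.00346). The call for metastasis was lost in 2 of 13 alternatives, without metastasis replicate 1-3 (adjusted p = 0.122) or lung replicate 4 (0.0591), and that for primary tumor held in all 11. Melanoma cells carry C4b, and the summed melanoma markers in these macrophages were at 214, 3074 and 879 CPM in metastasis, 331 and 274 in primary tumor and 14.6, 0, 0 and 5.20 in lung, against 17132 and 18370.2 in the melanoma cells of primary tumor MM, with C4b there at 216 and 198. Their part in the result was not tested.

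Fcna was at 42.5, 89.3 and 18.4 CPM in metastasis, 29.96 and 13.1 in primary tumor and 0, 0, 11.1 and 0 in lung (2 UMIs in all). The pooled ratio of metastasis to lung was 17.4 (exact 95% interval 4.57 to 147), and the fit gave a log2 fold change 4.22 ± 1.02 (SE), adjusted p = 0.0148. All tumor libraries were above all lung libraries, and the call against lung was made for metastasis alone (primary tumor adjusted p = 0.0840). The call was lost in 2 of 12 alternatives, without lung replicate 4 (adjusted p = 0.0531) or 6 (0.0528). Between the tumors Fcna was not called (adjusted p = 1.000).

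The most abundant macrophage members did not pass the test between tissues. C1qa was at 2985, 4948 and 2819.9 CPM in metastasis, 2812 and 3345 in primary tumor and 4909.8, 5117, 3356 and 3439 in lung, so that metastasis overlapped with lung and both primary tumor libraries lay just below it (adjusted p = 0.457 for primary tumor against lung). C1qb was at 2979.8, 5286 and 2664 CPM in metastasis, 2978 and 3600.3 in primary tumor and 4389.7, 4842, 2476 and 1964 in lung. C1qc was at 2088, 2270.2 and 1567 CPM in metastasis, 1922 and 1886 in primary tumor and 3252, 3199.9, 1689 and 1824 in lung. Each chain stayed abundant in every macrophage library. For metastasis against lung the log2 fold change was -0.21 ± 0.30 (SE) for C1qa, 0.10 ± 0.36 for C1qb and -0.32 ± 0.31 for C1qc. C3ar1 was at 240.1, 274 and 319 CPM in metastasis, 244 and 234 in primary tumor and 151, 289, 305 and 405 in lung. Cfp was at 244, 261 and 167 CPM in metastasis, 316 and 348 in primary tumor and 165, 38.3, 188 and 265 in lung. Cfp was highest in both primary tumor libraries and was not called (adjusted p = 0.107 against lung).

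**Figure D4:**
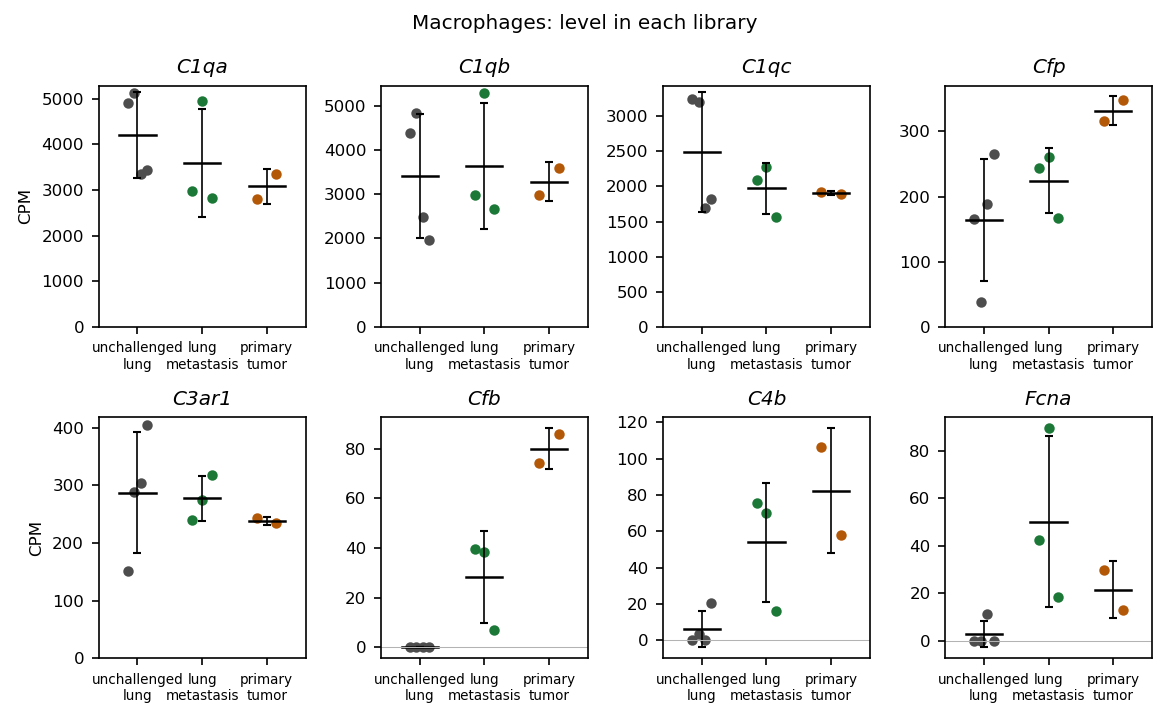
CPM of 8 complement genes in macrophages, 1 point per library, with lines at the mean and bars of 1 SD, for unchallenged lung (n = 4), lung metastasis TME (n = 3) and primary tumor TME (n = 2). Cfb sits at 0 in all lung libraries and above it in all tumor libraries, and C1qa, C1qb and C1qc stay between 1567 and 5286 CPM in each tissue.

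In endothelial cells 16 of the 30 genes were tested over 4 libraries per tissue (replicates 1-3, 4, 5 and 6 of the tumor sites, 1, 4, 5 and 6 of lung). In primary tumor against unchallenged lung 5 were called, all higher (Serping1, Cd59a, Cd55, Cfb and Masp1), against 18.9% of all 9557 genes (9.65% higher). In lung metastasis against primary tumor 4 were called, all lower (the same without Masp1), against 7.65% (3.33% lower), and in metastasis against lung 1 (C4b, higher), against 1.01% (0.963% higher). Libraries did not overlap for 5, 4 and 0 of the 16 genes in these comparisons, against 25%, 14% and 4.6% of all genes. The first 2 comparisons share the primary tumor libraries.

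Serping1 was at 73.2, 78.99, 137 and 93.3 CPM in primary tumor, 8.21, 4.83, 22.8 and 33.04 in metastasis and 4.98, 1.58, 10.8 and 12.2 in lung. All 4 primary tumor libraries were above all others (log2 fold change 3.76 ± 0.59 (SE), adjusted p = 0.000738 against lung). Cd59a was at 12.3, 28.99, 31.97 and 23.8 CPM in metastasis, 104, 116, 70.7 and 70.7 in primary tumor and 9.96, 2.44, 19.4 and 11.2 in lung (log2 fold change 3.16 ± 0.48 (SE), adjusted p = 0.000594). Cd55 was at 36.96, 8.05, 8.16 and 37.01 CPM in metastasis, 154, 49.7, 61.7 and 48.1 in primary tumor and 15.9, 16.1, 19.99 and 30.1 in lung (log2 fold change 1.91 ± 0.50 (SE), adjusted p = 0.0157). For each of these genes primary tumor did not overlap with either other tissue.

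Cfb was at 46.2, 78.99, 55.7 and 25.4 CPM in primary tumor, 4.11, 3.22, 6.46 and 15.9 in metastasis and 7.30, 3.16, 10.2 and 21.8 in lung (log2 fold change 2.34 ± 0.57 (SE), adjusted p = 0.0111). Masp1 was at 20.5, 0, 4.08 and 14.5 CPM in metastasis, 30.8, 26.8, 15.1 and 16.02 in primary tumor and 4.65, 1.87, 6.40 and 4.13 in lung, without overlap of primary tumor and lung (log2 fold change 2.42 ± 0.62 (SE), adjusted p = 0.0144). Metastasis against primary tumor gave an adjusted p of 0.0262 for Serping1, 0.0339 for Cd59a, 0.0460 for Cd55 and 0.0198 for Cfb. These calls were lost in 6 to 10 of 16 alternatives, and for Cd59a also with the replicate number as a block (adjusted p = 0.0543).

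The subtypes of endothelium were not the same in the tissues. Venous clusters held 80.8 to 100% of endothelial cells in the primary tumor libraries, 7.92 to 53.1% in metastasis and 3.90 to 22.6% in lung, where capillary clusters held the rest. The comparison was therefore repeated within the venous clusters alone, an alternative chosen after the data were seen, with 3 metastasis libraries (replicates 4, 5 and 6). The venous cells fell into 2 clusters that the tissues did not share evenly. Cluster 25 held 414 of primary tumor, 640 of metastasis and 32 of lung, and cluster 31 held 3, 124 and 720. A difference from lung within the venous cells is thus also one between these clusters, and the tissue and the cluster cannot be told apart there. In lung venous cells Serping1 was at 32.7, 3.82, 31.96 and 27.04 CPM and in those of primary tumor at 87.6, 79.6, 137 and 93.3, and the call held (log2 fold change 2.07, adjusted p = 0.00124). In cluster 25 Serping1 was at 88.3, 79.6, 130.3 and 93.3 CPM in primary tumor and 19.7 and 60.3 in metastasis replicates 5 and 6, and in cluster 31 at 65.9 and 30.9 in those metastasis libraries and 37.1, 4.09, 31.9 and 27.04 in lung. Cfb was at 50.3, 34.4, 31.96 and 16.9 CPM in lung venous cells and 55.3, 79.6, 55.7 and 25.4 in those of primary tumor, with overlap (log2 fold change 0.71, adjusted p = 0.219). Cd59a (log2 fold change 0.68, adjusted p = 0.241) and Cd55 (log2 fold change 0.05, adjusted p = 0.973) were not called there either, and Masp1 did not pass the low-count filter. Of the 5 genes, Serping1 alone was called in primary tumor against lung over both venous clusters (4 of 10 members called there, against 19.4% of all 8253 genes, 9.44% higher and 10% lower), where C1qa and C1qb were also called higher (log2 fold change 3.64, adjusted p = 0.0457, and log2 fold change 3.91, adjusted p = 0.0380) and Colec12 lower (log2 fold change -2.47, adjusted p = 0.000133).

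C1qa was at 41.5, 214, 0 and 0 CPM in the venous cells of primary tumor replicates 1-3, 4, 5 and 6 and 2.52, 1.91, 6.66 and 10.1 in those of lung, so primary tumor replicate 4 was far above the rest and replicates 5 and 6 had none. C1qb was at 36.9, 209, 0 and 0.943 and 0, 3.82, 5.33 and 6.76 in the same libraries. The 10 macrophage markers summed to 1434, 1109, 656 and 569 CPM in these primary tumor cells and 1258, 922, 947 and 1068 in those of lung, which overlapped. The number of these markers at 0 was 4, 0, 6 and 4 in the primary tumor libraries and 5, 4, 1 and 2 in those of lung. The part of macrophage transcripts in the C1q calls was not tested. Between metastasis and primary tumor Cfb was the 1 member called over both venous clusters, lower, against 4.05% of all genes, 1.59% lower (log2 fold change -1.98, adjusted p = 0.0362), with metastasis at 21.96, 7.69 and 22.7 CPM. In cluster 25 alone, which holds most venous cells of both tumor sites, Cfb was at 2.46 and 20.1 CPM in metastasis replicates 5 and 6 and 55.8, 79.6, 52.1 and 25.4 in primary tumor. Between metastasis and lung Colec12 was the 1 called there, lower (log2 fold change -2.06, adjusted p = 0.00740), against 8.52% of all genes, 3.3% lower, and here too most metastasis cells were of cluster 25 and most lung cells of cluster 31.

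**Figure D5:**
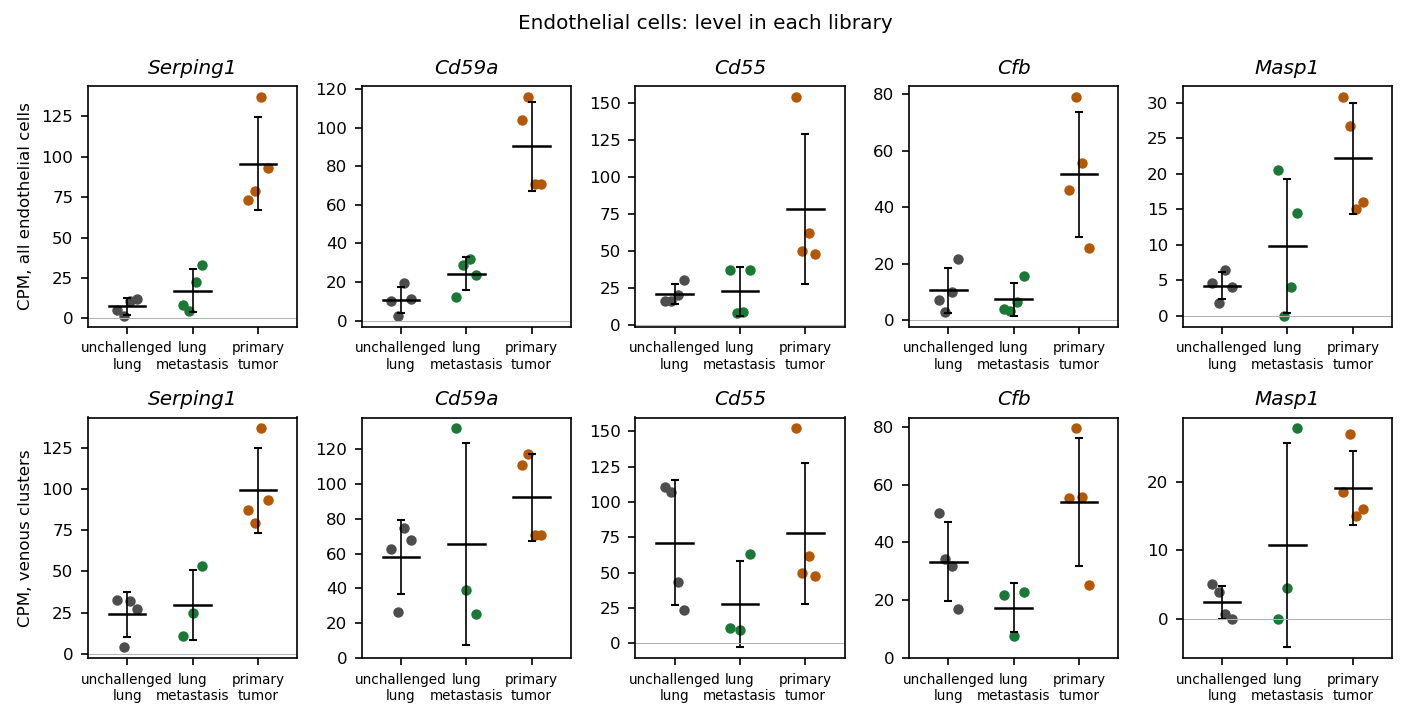
CPM of Serping1, Cd59a, Cd55, Cfb and Masp1, 1 point per library, with lines at the mean and bars of 1 SD, in all endothelial cells (top, n = 4 per tissue) and in the venous clusters alone (bottom, n = 4, 3 and 4 for unchallenged lung, lung metastasis TME and primary tumor TME). Primary tumor stands above lung for all 5 genes in the top row, and in the bottom row Cd59a, Cd55 and Cfb of lung reach into its range while Serping1 does not. Most venous cells of lung are of another cluster than those of the tumors.

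C4b in endothelial cells was at 111, 3.22, 46.3 and 22.5 CPM in metastasis, 19.3, 8.92, 3.01 and 11.3 in primary tumor and 0.996, 0.287, 2.50 and 3.78 in lung. Metastasis replicate 4 lay within the lung range, and the call (log2 fold change 4.42 ± 0.86 (SE), adjusted p = 0.0255) was lost in 6 of 15 alternatives. The melanoma markers in these cells summed to 423, 443, 7855 and 1548 CPM in metastasis, 393, 224, 334 and 1163 in primary tumor and 4.98, 1.58, 2.34 and 4.99 in lung, and their part in the result was not tested. C1qa, C1qb and C1qc reached 702, 530 and 394 CPM in metastasis replicate 1-3, where the 10 macrophage markers summed to 3959 CPM against 799.6 to 1440.0 in the other metastasis libraries.

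In neutrophils 7 of the 30 genes were tested in lung metastasis (replicates 1-3, 5 and 6) against unchallenged lung (replicates 1, 4, 5 and 6), and 2 were called, C1qb higher and C5ar2 lower, against 12.9% of all 4001 genes (10.2% higher and 2.65% lower). Libraries did not overlap for 3 of the 7, against 24.9% of all genes. C5ar2 was at 80.4, 26.4 and 58.5 CPM in metastasis and 182, 141, 176 and 157 in lung, and was lower in metastasis without overlap (log2 fold change -1.34 ± 0.30 (SE), adjusted p = 0.00951). C5ar1, the other C5a receptor, was at 267, 132 and 269.9 CPM in metastasis and 499.7, 461, 438 and 444 in lung, also without overlap, with an adjusted p of 0.0753. Both receptors of C5a lay below lung in all metastasis libraries, and C5ar2 alone was called. That call was lost in 3 of 14 alternatives, among them without metastasis replicate 6 (adjusted p = 0.0658) and with libraries of at least 10 cells (0.199). C1qb was at 42.3, 0 and 37.8 CPM in metastasis and 0, 0, 1.47 and 6.87 in lung, which overlapped (log2 fold change 3.48 ± 0.78 (SE), adjusted p = 0.0101). It lost its call in 3 of 13 alternatives, by DESeq2 (adjusted p = 0.0748) and without metastasis replicate 6 (0.0961) or lung replicate 5 (0.0816). The summed macrophage markers in these neutrophils were at 652, 634 and 340.4 CPM in metastasis and 303, 221, 331 and 549 in lung, and their part in the result was not tested. Tissue and gate cannot be told apart in neutrophils either.

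In melanoma cells 16 of the 30 genes were tested between 2 metastasis MM and 2 primary tumor MM libraries, and edgeR called none, against 0% of all 13789 genes (0 called, 379 at an unadjusted p below 0.05, 26 by DESeq2). Libraries did not overlap for 7 of the 16, against 27.2% of all genes. C4b was lower in both metastasis libraries (values above), with a log2 fold change of -1.06 ± 0.35 (SE) and an adjusted p of 1.000. With 2 libraries a group, a p that misses the threshold does not show that the sites were alike. AT-2 cells had 1 metastasis library and alveolar macrophages 1, so their values stand above without a test.

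Of 30 further genes of the pathway chosen by name, those described here that reached 100 CPM in a class were Calr, Cd93, Clu, Itgam, Itgax, Itgb2 and Thbd. Itgam and Itgb2, the chains of complement receptor 3, were highest in neutrophils at 509 ± 80.002 CPM (SD, n = 10) and in NK cells at 599 ± 129 CPM (SD, n = 5). Itgax, the alpha chain of receptor 4, was highest in alveolar macrophages at 403 ± 79.2 CPM (SD, n = 5). Cd93 and Thbd, endothelial surface proteins, were highest in endothelial cells (826 ± 353 CPM (SD, n = 13) and 799 ± 578 CPM (SD, n = 13)). Clu, a soluble inhibitor of the pore, was highest in club cells (456 ± 424 CPM (SD, n = 4)) and the chaperone Calr in melanoma cells (926 ± 132 CPM (SD, n = 5)). C8b and Mbl2 had no UMI in a named cell, and C8a, C9, C4bp and Colec10 had 5 to 7 each, so C8a, C8b and C9 of the pore were at the limit of detection at this depth.

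In fibroblasts 10 of these 30 genes were tested. Clu was the 1 gene called in metastasis against primary tumor, at 772 ± 105 CPM (SD, n = 2) against 25.9 ± 18.8 (SD, n = 3) (log2 fold change 4.86 ± 0.65 (SE), adjusted p = 0.0158), and it was also higher than in lung (adjusted p = 0.0361). In the pooled subclusters of metastasis Clu was at 1415 CPM in mesothelial cells against 32.3 to 70.9 in the other named ones. The study picked Clu for a signature from these libraries, which makes its direction here not independent. Thbd was lower than in lung in metastasis (48.4 ± 14.7 CPM (SD, n = 2) against 423 ± 185 (SD, n = 3), adjusted p = 0.0384) and in primary tumor (adjusted p = 0.00897). Csmd1, a membrane regulator, and Ptx3, a pentraxin that binds C1q, were higher in primary tumor than in lung (adjusted p = 0.0311 and 0.0222).

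In macrophages 7 of these 30 genes were tested. Itgam was higher than in lung in metastasis, at 617 ± 59.1 CPM (SD, n = 3) against 219 ± 31.7 (SD, n = 4) (log2 fold change 1.55 ± 0.24 (SE), adjusted p = 0.000702), and in primary tumor (adjusted p = 0.0174). In endothelial cells Thbd was lower in primary tumor than in lung (189 ± 152 CPM (SD, n = 4) against 1354 ± 407 (SD, n = 4), adjusted p = 0.00244) and than in metastasis (adjusted p = 0.0243, with overlap). This direction was the reverse of Serping1, Cd59a and Cd55 in the whole class. The share of venous cells differed between the tissues (above), and Thbd within the venous clusters is not given here. Tissue and endothelial subtype cannot be told apart for it. In neutrophils Thbd was lower in metastasis than in lung (adjusted p = 0.0387, with overlap).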

How the data were processed

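Raw UMI counts per gene and cell were deposited by the authors as 1 table for the series, made with Cell Ranger 6.1.1 on GRCm38 (mm10) and Seurat 3.2.2 per the labels. Its cells held 553 to 3785 genes. The members and lists were chosen with earlier results of these data known. No doublet caller was applied, and no column of per-sample values was left out. Cells were clustered in scanpy 1.11.5 (2000 variable genes without the 60 complement genes, 17 components, 20 neighbors, resolution 1.5), and clusters were named by at least 3 raised markers. Counts were summed per class and library with at least 20 cells. Tissues were compared by edgeR 4.0.16 (quasi-likelihood, filterByExpr, TMM factors, Benjamini-Hochberg adjustment over all genes) in R 4.3.3, with DESeq2 1.42.0 as an alternative, and the fit was tested on simulated counts. Members were described with the values of their leading classes and wherever they were called, and other pathway genes were named where called or at 100 CPM, except 1 gene that is not reported here. The replicate number was tried as a block. Metastasis and primary tumor share mice in TME replicates 1-3 (in part), 5 and 6 and MM replicate 5, but not in replicate 4, whereas lung shares no mouse with them. Replicates 5 and 6 both carried run 3 in the library names, which do not say what step a run refers to. Deviations of same-numbered libraries correlated by -0.0834 and -0.0642 in fibroblasts and by 0.237 and 0.214 in endothelial cells of metastasis and primary tumor. Where nothing says that samples are separate animals, p-values measure the spread between samples. Intervals and floors (3 UMIs) cover counting error only. Near copies (C4a and C4b, C1ra and C1rb, C1s1 and C1s2, Cd55 and Cd55b, Cd59a and Cd59b) can share reads. Restrictions to named fibroblast subclusters, to fibroblasts without mesothelial cells and to venous clusters were chosen after seeing the data.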

Additional observations from a re-analysis of the deposited data

Results flagged for a closer look

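In 10 of 66 groups of 4 to 10 libraries 1 library stood apart for a complement gene, against 3.3 expected by chance. Genes of the same class share libraries, so the 10 are not independent, and the excess over 3.3 was not tested. Of these, 4 were in endothelial cells of lung metastasis replicate 1-3, with C1qa at 702 CPM (others 4.76 to 30.4), C1qb at 529.8 (5.10 to 35.7), C1qc at 394 (2.38 to 15.9) and Cfp at 28.7 (1.02 to 3.96). In endothelial cells of unchallenged lung, Cfp was at 48.2 CPM in replicate 6 (others 1.58 to 7.18) and Cd46 at 14.1 in replicate 5 (7.91 to 8.96). Cfp was also at 48.4 CPM in NK cells of lung replicate 6, against 1.78 and 2.37 in replicates 4 and 5. Cd55 was at 154 CPM in endothelial cells of primary tumor replicate 1-3 (others 48.1 to 61.7). In macrophages of unchallenged lung, C3 was at 138 CPM in replicate 5 (others 20.8 to 31.4), C4b at 20.8 in replicate 6 (0 to 3.49) and Fcna at 11.1 in replicate 5 (0 in the others).

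The direction of metastasis against primary tumor differed between classes for Cd59a and Cfb, with every library of the 2 tissues apart in each class named. Libraries of these tissues were apart for 28.7% of all genes in fibroblasts, 17.5% in macrophages and 14% in endothelial cells. The log2 fold change of Cd59a was 0.81 in fibroblasts and -1.84 in endothelial cells, and that of Cfb was 1.56 in fibroblasts, -1.49 in macrophages and -2.78 in endothelial cells. Only the endothelial differences were called. Within venous clusters alone Cd59a came to -0.90, not called, and Cfb to -1.98, called. In fibroblasts Cfb came to 0.54 without the mesothelial subcluster and to 1.57 in the named subclusters, not called in either. Cd59a came to 1.42 and 1.32 in these settings, called in the second alone. The difference between classes was not tested.

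Among cells that took no class name, cluster 4 (6019 cells, 9 libraries) had C4b at 434 CPM and Cd59a at 107, and cluster 36 (3 libraries) had C4b at 249 and Cd59a at 124. These means were above that of the highest named class, fibroblasts for C4b and melanoma cells for Cd59a, and their ranges over libraries were 174 to 715 and 75.0 to 211 in the first and 79.0 to 543 and 90.3 to 173 in the second.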

How the results depend on the processing

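Of the alternatives to the number of members called per comparison, 103 stayed within 1.5 times it and 47 did not, and of those for single genes, levels and shares 300 kept their call or value, 68 lost the call and 22 moved. No call reversed. In this paragraph the share of all genes called under the same setting follows each count. In fibroblasts, metastasis against primary tumor gave 2 members without the low-count filter (1.56%), 2 by DESeq2 (2.85%), 2 in the named subclusters (4.04%) and 0 in replicates 5 and 6 alone (0.684%), in place of 1 (0.819%). Metastasis against lung gave 1 without the filter (3.31%), in place of 0 (1.08%). Primary tumor against lung gave 5 without the filter (11.4%), 1 in replicates 5 and 6 alone (8.15%) and 6 in the named subclusters (18%), in place of 2 (12.2%). In macrophages, metastasis against primary tumor gave 1 without the filter (0.838%), in place of 0 (0.15%), metastasis against lung gave 0 in replicates 5 and 6 alone (6.97%), in place of 3 (9.99%), and primary tumor against lung gave 4 without the filter (5.45%) and 4 at resolution 0.5 (8.39%), in place of 2 (8.47%). The number of members tested in replicates 5 and 6 alone is not given here, so the 0 in macrophages may include members that could not be tested. In endothelial cells, metastasis against primary tumor gave 1 in replicates 5 and 6 alone (1.54%) and 1 in venous clusters (4.05%), in place of 4 (7.65%), and primary tumor against lung gave 9 of 14 members at resolution 0.5 (26.2%), in place of 5 of 16 (18.9%). In neutrophils the count was 7 without the filter (5.7%), 1 by DESeq2 (9.87%) and 1 with at least 10 cells (10.2%), in place of 2 (12.9%). The cause was not tested.

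With the replicate number as a block, endothelial metastasis against lung gave 0 members in place of 1, and C4b (adjusted p = 0.0620) there, Cd59a (0.0543) in endothelial metastasis against primary tumor and C5ar2 (0.0527) in neutrophils lost their calls. The block gave 1, 0 and 3 members in the fibroblast comparisons, 3 in macrophage metastasis against lung, 3 in endothelial metastasis against primary tumor, 5 in endothelial primary tumor against lung, 2 in neutrophils and 0 in melanoma cells. The share of all genes called with the block is not given beside these counts, so they cannot be set against it. Tumor and lung libraries of 1 number share no animal, and in the comparisons with lung that share 3 numbers not every library correlated best with its own number. No paired analysis was possible because fewer than 2 replicate numbers are shared for macrophages of primary tumor with either other tissue.

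Leaving out 1 library in turn gave 0 to 0, 0 to 1 and 1 to 5 members in fibroblasts (metastasis against primary tumor, metastasis against lung, primary tumor against lung), 0 to 0, 1 to 3 and 2 to 2 in macrophages, 0 to 3, 0 to 1 and 3 to 6 in endothelial cells, 0 to 3 in neutrophils and 0 to 0 in melanoma cells. The share of all genes called in each of these fits is not given here, so a change in a count cannot be read as particular to the members. In fibroblast metastasis against primary tumor the calls over all genes fell as well (below). The count of 5 in fibroblasts was without lung replicate 6. The endothelial calls of metastasis against primary tumor fell to 0 without metastasis replicate 1-3 or 4 or primary tumor replicate 4 or 5. The endothelial C4b call was lost without metastasis replicate 5 or 6 or lung replicate 1, 4 or 5. Macrophage metastasis against lung fell to 1 without metastasis replicate 1-3 or lung replicate 4, and neutrophils to 0 without metastasis replicate 6.

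Over all genes, fibroblast metastasis against primary tumor gave 91 calls, and 333 without the filter, 317 by DESeq2 and 0 to 13 with any library left out. Fibroblast metastasis against lung gave 120, and 706 without the filter and 610 by DESeq2. Endothelial metastasis against lung gave 97, and 231 by DESeq2 and 330 at resolution 0.5. Melanoma cells gave 0, and 79 without the filter and 123 with the block. Of the single values, C1qa in macrophages was at 2677 CPM and C1qbp in melanoma cells at 133 CPM at resolution 0.5.

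Metastasis rests on 2 fibroblast libraries and 26 to 112 macrophages a library, so a difference that missed the threshold there is not shown to be absent. AT-2 cells and alveolar macrophages had 1 metastasis library of 20 cells or more, so their planned comparisons could not be made at that minimum.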
